A study of Mus musculus with 24 samples.

Results

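The 2 differentiated cell types of the adult mouse olfactory epithelium were set against each other: sustentacular cells, the supporting cells (Sus), and mature olfactory sensory neurons (OMP). The members were the 3 arrays titled Sus and the 3 arrays titled OMP, 6 of the 24 arrays of the series, and all measured genes were used. Messenger RNA was hybridised to Illumina bead arrays, in which each probe returns 1 fluorescence intensity per array. Sus cells came from heterozygous mice of a ∆Sox2-GFP line crossed to FVB/NJ and were sorted live as cells with high GFP and without surface CD54. OMP cells came from heterozygous mice of a ∆OMP-GFP line crossed to CD-1 and were sorted live as GFP-positive cells with low forward and side scatter. All Sus and OMP mice were adults of 8 to 12 weeks with an intact olfactory bulb, labelled normal transgenic. Several mice were pooled for each array. Mouse line, gate and cell type changed together, so their parts in a difference cannot be told apart. The labels name no separate animals for the arrays of a group beyond the pooling, so p-values measure the spread between arrays. That spread was estimated from 21 arrays of 7 groups of the series, not from Sus and OMP alone. Among them are the groups Neurog1-OBX and OMP-OBX, from mice of the same age 3 weeks after bulbectomy. The unlesioned groups Sox2GBC, Neurog1-Ctrl and OM, also from mice of 8 to 12 weeks, complete the 7. Sox2GBC are low-GFP basal cells of the mouse line that gave Sus, Neurog1-Ctrl are Neurog1-GFP precursors, and OM is whole mucosa.

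Sustentacular cells span the height of the epithelium, seal its surface, carry microvilli and are known for the enzymes that oxidise and conjugate inhaled chemicals. Mature olfactory sensory neurons lie below them, send cilia into the mucus and an axon to the olfactory bulb, and each expresses a single odorant receptor gene. In their cilia a bound receptor activates an olfactory G protein and adenylyl cyclase, and cyclic AMP opens a cation channel and then a chloride channel. Both types renew from basal cells, and Sox2, a transcription factor, is made in basal cells as well as in sustentacular cells.

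Values are log2 intensities after background correction and quantile normalisation, with a mean ± SD over 3 arrays, and run from 4.32 to 15.53 on these 6 arrays. A difference is Sus minus OMP with its standard error, so a positive one is higher in Sus, and a gene is called at a limma adjusted p under 0.05. The 6 arrays detected 36.4% to 46.0% of probes. Their negative control spread, inferred from the signal at given detection p-values, ran from 4.40 to 16.2 intensity units. The quietest array of each group, replicate 1 at 4.40 in Sus and 4.49 in OMP, detected the most probes, 42.4% and 46.0%. Among the other arrays the spread did not order detection. Sus replicate 2, at 5.3, detected 36.4% of probes and OMP replicate 2, at 15.2, 38.2%. Arrays of 1 group correlated at 0.964 to 0.974 in Sus and 0.968 to 0.971 in OMP over the genes tested, and Sus with OMP arrays at 0.724 to 0.805. The quietest Sus and OMP arrays alone gave the called direction for 99.4% of called genes and a noisy pair for 99.3%, although these arrays also enter the fit. Some arrays stood apart by gene lists fixed for this work. Sus replicate 1 had a mean of 7.90 over the genes of DNA replication and mitosis, where Sus replicates 2 and 3 had 9.72 and 9.91. OMP replicate 2 had means of 8.03 for red blood cell, 7.35 for endothelial and 8.14 for fibroblast markers, where OMP replicates 1 and 3 had 5.48 and 6.17, 5.61 and 5.44, and 6.61 and 6.67. Sus replicate 3 had means of 9.90 for immature neuron markers, 9.72 for olfactory transcription factors and 9.89 for the neuronal cytoskeleton. Sus replicates 1 and 2 had 8.94 and 8.73, 8.82 and 9.03, and 9.24 and 9.01. For Bowman gland markers Sus replicates 1, 2 and 3 had 8.92, 8.33 and 9.96. The test called 6688 genes without Sus replicate 1, 6879 without Sus replicate 3 and 6806 without OMP replicate 2, beside 7116 with all 6 arrays. In a sorted bulk sample fewer cells of a type and less RNA per cell cannot be told apart.

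The sorting genes and markers were read first. Sox2 read 9.41, 9.74 and 9.84 in Sus, against 7.08, 6.83 and 6.69 in OMP. The groups did not overlap, and the difference was 2.80 ± 0.32 (adjusted p = 3.44e-07). Omp, the marker protein of mature olfactory neurons, read 14.15, 13.79 and 13.70 in Sus, against 15.53, 15.22 and 14.96 in OMP. Every Sus array was below every OMP array, but Omp was bright in both, and the brightest probe differed by −1.36 while another probe differed by −3.16. That brightest probe averaged 15.24 in OMP, 15.24 in Sox2GBC and 15.19 in Neurog1-Ctrl, so it did not set mature neurons apart from those sorts. Icam1, which encodes CD54, averaged 5.39 ± 0.21 in Sus and 5.92 ± 0.55 in OMP. It was detected on 0 Sus arrays and 2 of 3 OMP arrays and was not called (difference −0.53, adjusted p = 0.15).

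The 3 marker genes followed the labels. Cyp2b10, a cytochrome P450 of the sustentacular cell, read 12.90, 12.72 and 12.55 in Sus, against 8.91, 8.56 and 8.03 in OMP. All Sus arrays were brighter than all OMP arrays (difference 4.22 ± 0.32, adjusted p = 1.66e-09), and a second Cyp2b10 probe differed by 1.34. Krt18, a keratin of simple epithelia, read 13.47, 13.71 and 13.29 in Sus, against 9.69, 9.41 and 8.97 in OMP. The groups were again apart, by 4.13 ± 0.34 (adjusted p = 4.48e-09). Syt1, the calcium sensor of synaptic vesicles, read 9.45, 9.31 and 9.80 in Sus, against 13.84, 13.76 and 14.35 in OMP. Here every Sus array was the dimmer one, by −4.46 ± 0.20 (adjusted p = 2.91e-12), and its other probes ranged from −4.17 to −1.18. Of 14 sustentacular markers tested, 11 rose and 0 fell in Sus, and of 22 mature neuron markers 0 rose and 21 fell. Markers of each type were also detected in the other sort: all 14 sustentacular markers were detected on all 3 OMP arrays, and 21 of 22 neuron markers on all 3 Sus arrays. The 3 sustentacular markers that missed the test, Cyp2a5, Gpx6 and Sec14l3, differed by 0.27, 0.51 and 0.63 with their brightest probe. Dimmer probes gave larger differences, from 1.15 to 2.78 for Cyp2a5 and from 2.81 to 3.22 for Sec14l3. Carry-over of cells or RNA between the sorts and expression in the sorted type itself cannot be told apart from these values.

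**Figure D1:**
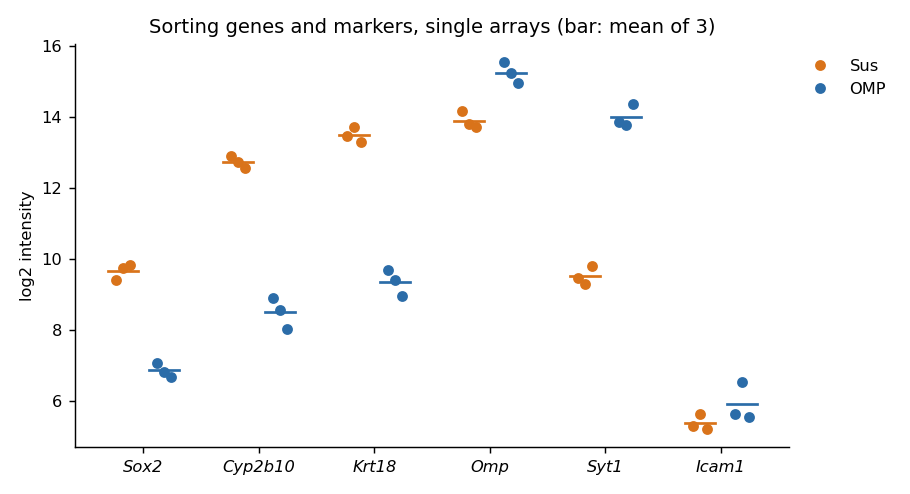
Log2 intensity of 6 marker and sorting genes on each array, with Sus left (orange) and OMP right (blue); points are single arrays and bars are means of 3. Sox2, Cyp2b10 and Krt18 sit higher in Sus, Omp and Syt1 sit lower in Sus, and Icam1 overlaps.

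Over the whole array 11870 genes passed the detection filter, and 7116 of them (59.9%) were called. Sus was higher for 3450 genes (29.1%) and lower for 3666 (30.9%), and 4913 (41.4%) were called and differed by at least 2-fold. For 7124 genes (60%) no Sus array overlapped an OMP array. The median difference over all genes tested was −0.02, or −0.21 after scaling by medians in place of quantiles, and any count for a gene group below is to be read against these shares.

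The steepest rises in Sus included genes that switch on within minutes of a stimulus. Fosb, a subunit of the AP-1 transcription factor, read 12.14, 13.48 and 12.65 in Sus, against 6.77, 7.76 and 7.26 in OMP. No array overlapped, and the difference of 5.50 ± 0.46 was the largest rise that met the naming rule (adjusted p = 5.28e-09). Atf3, a transcription factor of the stress response, read 12.10, 12.58 and 12.33 in Sus, against 7.15, 7.65 and 6.28 in OMP. It separated the groups by 5.31 ± 0.44 (adjusted p = 5.18e-09). Chil4, a secreted chitinase-like protein, averaged 12.03 ± 0.78 in Sus and 6.74 ± 1.33 in OMP (difference 5.29 ± 1.19). It was not highest in Sus, with 14.21 ± 0.42 in OMP-OBX and 14.77 ± 0.27 in Neurog1-OBX. Its SD was 2.23 in Sox2GBC and 3.18 in OM. Next came Ppp1r27, a phosphatase regulator, at least 21.5-fold higher in Sus (10.01 ± 0.18 in Sus and 4.98 ± 0.13 in OMP), since no OMP array detected it. Gadd45b, a growth arrest and stress protein, differed by 5.01 ± 0.33, with 2.94 from a second probe, and Socs3, an inhibitor of cytokine signalling, by 4.95 ± 0.32. The remaining 9 of the 15 largest rises were Osgin1, Nt5dc2, Irf1, Oit1, Junb, Cxcl1, Zfp36, Cyp4b1 and Kif4, from 4.58 for Kif4, a mitotic motor, to 4.83 for Osgin1.

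The steepest falls in Sus were odorant receptors and neuronal genes. Olfr672, an odorant receptor, read 5.27, 5.60 and 4.92 in Sus, against 11.21, 11.15 and 11.68 in OMP. It was detected on 0 Sus arrays and all 3 OMP arrays, which makes it at least 50.5-fold lower in Sus (adjusted p = 1.01e-10). Faim2, an inhibitor of Fas-mediated cell death in neurons, read 7.89, 7.32 and 7.76 in Sus, against 13.25, 12.87 and 13.24 in OMP. All Sus arrays were dimmer, by −5.47 ± 0.19 (adjusted p = 2.43e-13), and a second probe differed by −3.45. Kcna6, a voltage-gated potassium channel, averaged 8.03 ± 0.36 in Sus and 13.12 ± 0.27 in OMP (difference −5.09 ± 0.20), with other probes from −4.54 to −2.20. Chga, a protein of secretory granules, averaged 8.52 ± 0.13 in Sus and 13.44 ± 0.11 in OMP (difference −4.92 ± 0.23), and Vsnl1, a neuronal calcium sensor, averaged 6.83 ± 0.21 in Sus and 11.71 ± 0.33 in OMP (difference −4.88 ± 0.25). The others of the 15 were the receptors Olfr969, Olfr549, Olfr615 and Olfr1222 and the genes Aatk, Adcy3, Sema7a, Vwa3a, Atp8b3 and Umodl1. Of these 4 receptors, the first 3 were detected on 0 Sus arrays, and the bounds were at least 26.6-fold, 19.4-fold and 18.9-fold lower in Sus.

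**Figure D2:**
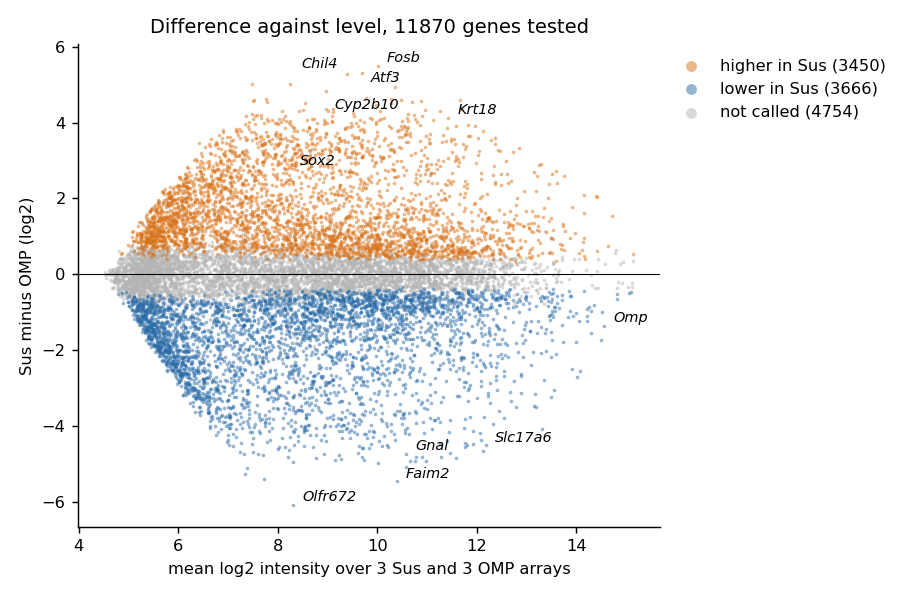
Difference (Sus minus OMP, log2) of each of the 11870 genes tested against its mean log2 level over the 6 arrays; called genes are orange where higher in Sus and blue where lower, and the others grey. The cloud reaches about as far up as down, and most of the named genes lie near its edges.

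The keratin and transcription factor programme of simple epithelia was on the Sus side. Of 18 such genes tested, 17 rose, 0 fell, and the median difference was 3.01. Krt8, the partner of Krt18 in intermediate filaments, averaged 14.07 ± 0.22 in Sus and 10.51 ± 0.46 in OMP (difference 3.55 ± 0.38). Elf3, an epithelial ETS factor, averaged 11.30 ± 0.44 in Sus and 6.94 ± 0.54 in OMP (difference 4.36 ± 0.33). Among the grainyhead and Krüppel-like factors that maintain epithelia, Grhl1 differed by 3.07 ± 0.33, Grhl2 by 2.99 ± 0.36 and Klf5 by 3.49 ± 0.28. The splicing regulators diverged in the test, with Esrp2 higher by 3.82 ± 0.40 and Esrp1 not called (12.09 ± 0.48 in Sus and 11.49 ± 0.44 in OMP, difference 0.61).

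Cell junction genes went the same way, with 18 of 25 higher in Sus, 2 lower and a median of 1.35. Cldn4, a tight junction claudin, read 11.42, 12.10 and 11.56 in Sus, against 7.37, 7.66 and 7.81 in OMP. The arrays did not overlap, and the difference was 4.08 ± 0.29 (adjusted p = 8.86e-10). Cdh1, the adherens junction cadherin, differed by 2.54 ± 0.35, and Gja1, a gap junction connexin, by 3.01 ± 0.34. Tjp3, a scaffold of tight junctions, averaged 10.51 ± 0.31 in Sus and 6.80 ± 0.50 in OMP (difference 3.70 ± 0.27). The falls were Prkcz, an atypical protein kinase of polarity complexes (10.69 ± 0.33 in Sus and 12.36 ± 0.18 in OMP, with another probe as small as −0.83), and Pard6b, a polarity scaffold detected on 0 Sus arrays (5.25 ± 0.13 in Sus and 5.79 ± 0.36 in OMP), whose call was lost without any 1 of the Sus arrays (adjusted p = 0.0615, 0.0822 and 0.133).

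Notch signalling genes, which mark the sustentacular choice in this epithelium, gave 7 rises and 2 falls among 15 tested, with a median of 0.75. Hes1, a Notch target that represses neuronal genes, read 12.02, 12.37 and 12.20 in Sus, against 8.10, 7.91 and 7.20 in OMP. Every Sus array was brighter, by 4.46 ± 0.33 (adjusted p = 1.24e-09). The receptors Notch3 and Notch1 differed by 4.28 ± 0.37 and 3.22 ± 0.40, and the targets Nrarp and Hey1 by 3.24 ± 0.22 and 2.98 ± 0.40. In contrast the ligand Jag2 was lower in Sus (difference −1.72) and so was Numb, an inhibitor of Notch (−0.90, with a probe as small as −0.15). The ligands Jag1 and Dll1 were not called (differences 0.75 and 0.27).

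Enzymes of xenobiotic metabolism formed a wide block of genes higher in Sus. Among cytochrome P450 enzymes and their electron donors, which oxidise small molecules, 15 of 22 rose and 3 fell (median 1.72). Cyp4b1, a microsomal P450, read 13.15, 13.36 and 12.97 in Sus, against 9.16, 8.80 and 7.79 in OMP. No array overlapped, and the difference was 4.58 ± 0.47 (adjusted p = 7.83e-08). Cyp1a2, a P450 of aromatic amines, averaged 14.08 ± 0.28 in Sus and 10.83 ± 0.73 in OMP (difference 3.25 ± 0.39). Cyp2g1, a P450 known as specific to olfactory mucosa, stood near the top of the scale in both groups, with 15.49 ± 0.04 in Sus and 13.94 ± 0.62 in OMP, and differed by 1.55 ± 0.36. Cyp2f2 differed by 2.08 ± 0.32 and Cyp2s1 was lower in Sus (difference −2.10). Cyb5r3, the cytochrome b5 reductase, differed by 2.34 ± 0.31. For Cyp2a5 both groups were among the brightest genes, 15.02 ± 0.03 in Sus and 14.75 ± 0.23 in OMP, so saturation of the bead signal was not tested as a limit on its difference.

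Conjugating enzymes attach glutathione, glucuronic acid, sulphate or acetyl groups to the oxidised products, and 21 of 27 rose, 2 fell, with a median of 2.58. Gstt3, a theta-class glutathione transferase, read 12.72, 13.07 and 12.62 in Sus, against 9.46, 9.22 and 8.76 in OMP. The groups were apart by 3.65 ± 0.33 (adjusted p = 1.57e-08). Gstm1 and Gstm2, mu-class transferases, were bright in both cell types, and Gstm1 averaged 14.95 ± 0.40 in Sus and 12.23 ± 0.88 in OMP. Their differences were 2.72 ± 0.41 and 2.60 ± 0.28; probes for such close relatives can share target sequence, so single members are less certain than the family. Mgst1, a microsomal transferase, differed by 3.43 ± 0.32. Ugt2a1, the glucuronosyltransferase of olfactory tissue, averaged 12.51 ± 0.74 in Sus and 9.36 ± 0.50 in OMP (difference 3.15 ± 0.66). Sult1d1, a sulphotransferase, ran against its list and read 9.17, 8.53 and 9.48 in Sus, against 12.92, 13.15 and 13.38 in OMP. It was lower on every Sus array (difference −4.09 ± 0.27), but its second probe differed by −0.12.

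Other detoxifying oxidoreductases and hydrolases gave 19 rises and 4 falls of 28 (median 1.76). Aldh1a7, an aldehyde dehydrogenase, averaged 12.66 ± 0.58 in Sus and 8.54 ± 0.62 in OMP (difference 4.12 ± 0.56), and Fmo1, a flavin monooxygenase, 12.63 ± 0.10 in Sus and 8.59 ± 0.42 in OMP (difference 4.03 ± 0.38). Ephx1, the microsomal epoxide hydrolase, differed by 2.88 ± 0.34. Nqo1, a quinone reductase, went the other way and read 9.26, 8.45 and 8.24 in Sus, against 11.75, 12.34 and 12.67 in OMP. All Sus arrays were dimmer, by −3.60 ± 0.43 (adjusted p = 6.4e-07). Adh7, an alcohol dehydrogenase, was detected on 0 Sus arrays and was at least 4.13-fold lower in Sus (4.65 ± 0.22 in Sus and 7.74 ± 0.52 in OMP). In the glutathione and antioxidant list 12 of 24 rose and 4 fell. Gpx1, a glutathione peroxidase, differed by 2.95 ± 0.19 and Cat, which encodes catalase, by 2.20 ± 0.33. Nfe2l2, the transcription factor of the antioxidant response, was lower in Sus (difference −1.22), and so were Srxn1 (−1.38) and Hmox1 (−1.17). The other Srxn1 probes differed by −0.61 and −0.34. The Nfe2l2 call was lost without Sus replicate 1 (adjusted p = 0.103) or OMP replicate 2 (adjusted p = 0.0887), and that of Hmox1 without Sus replicate 3 (adjusted p = 0.0732) or OMP replicate 3 (adjusted p = 0.0832).

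**Figure D3:**
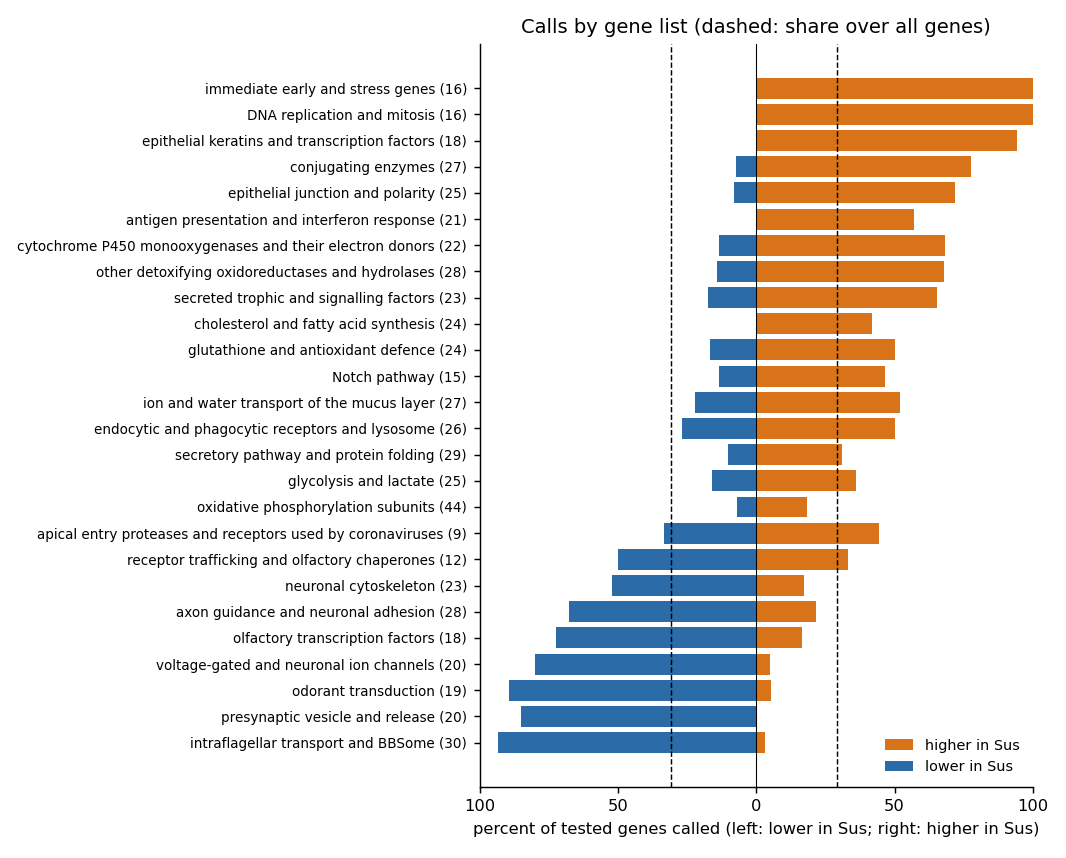
Percent of tested genes in each functional group called higher in Sus (orange, to the right) and lower in Sus (blue, to the left), with the number tested beside each name and dashed lines at 29.1% and 30.9%, the shares over all genes. Conjugating enzymes, keratins and immediate early genes reach far right, and transduction, cilia and vesicle genes far left.

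Of 27 channels and transporters that set the salt and water of the mucus, 14 were higher and 6 lower in Sus. Over all genes 29.1% were higher and 30.9% lower. Of the water channels named, 3 were higher in Sus: Aqp3 differed by 3.25 ± 0.34, Aqp4 by 3.06 ± 0.32 and Aqp5 by 3.23 ± 0.29. The fourth, Aqp1, was not called (difference −1.53). Slc9a2, a sodium and proton exchanger, averaged 10.17 ± 0.61 in Sus and 6.61 ± 0.42 in OMP (difference 3.57 ± 0.46). Slc4a4, a sodium bicarbonate cotransporter, averaged 7.98 ± 0.70 in Sus and 11.36 ± 0.74 in OMP and was lower in Sus (difference −3.39 ± 0.38). Slc12a2, the sodium, potassium and chloride cotransporter that loads olfactory neurons with chloride, was lower in Sus (difference −1.33), and so was Atp1b1, a sodium pump subunit (−1.0, adjusted p = 0.0865 after cyclic loess).

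Receptors that take up debris and proteins were among the stronger rises, and 13 of 26 endocytic and lysosomal genes were higher, 7 lower. Tyro3, a receptor for dying cells, read 11.95, 12.40 and 12.20 in Sus, against 8.34, 8.26 and 7.59 in OMP. The groups did not overlap (difference 4.12 ± 0.35, adjusted p = 8.17e-09). Lrp2, the endocytic receptor megalin, averaged 12.44 ± 0.27 in Sus and 8.74 ± 0.19 in OMP (difference 3.69 ± 0.43), and its adaptor Dab2 differed by 3.82 ± 0.40. Stab1, a scavenger receptor, gave 4.18 ± 0.30 with its brightest probe, but its other probes ranged from −0.17 to −0.04. Mfge8, a bridging protein that tags dying cells, was lower in Sus (difference −2.25), and so was the lysosomal gene Psap (−1.24).

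Secreted factors showed 15 rises and 4 falls of 23. Wnt7b averaged 11.37 ± 0.47 in Sus and 7.99 ± 0.47 in OMP (difference 3.39 ± 0.36), Wnt4 differed by 2.93 ± 0.25 and Tgfb2, a transforming growth factor, by 3.43 ± 0.36. Hbegf, a ligand of the EGF receptor, was at least 3.44-fold higher in Sus (7.36 ± 0.16 in Sus and 5.09 ± 0.11 in OMP), as no OMP array detected it. Bmp6, a bone morphogenetic protein, was at least 2.25-fold lower in Sus (4.57 ± 0.17 in Sus and 6.86 ± 0.48 in OMP), as no Sus array detected it. Of 9 surface genes that coronaviruses use for entry, 4 rose and 3 fell. Tmprss2, a protease of the apical surface, averaged 12.61 ± 0.43 in Sus and 9.08 ± 0.50 in OMP (difference 3.53 ± 0.43) and Dpp4 differed by 3.59 ± 0.39, while Nrp1 was lower in Sus (difference −1.66) and so was Furin (−0.97).

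Antigen presentation and interferon genes gave 12 rises and 0 falls of 21. Irf1, an interferon-induced transcription factor, read 12.68, 12.62 and 12.48 in Sus, against 7.73, 8.84 and 7.35 in OMP. No array overlapped (difference 4.62 ± 0.34), with other probes from 1.92 to 4.75. The class I genes H2-K1 and H2-D1 differed by 3.07 ± 0.55 and 3.06 ± 0.36 and their partner B2m by 1.85 ± 0.25, and the class II genes H2-Aa and H2-Ab1 were not called (differences 0.59 and 0.31). Probes for class I genes can differ in how well they match the alleles of the 2 mouse lines, which was not tested. Macrophage and lymphocyte markers stood at 2 higher and 2 lower of 12, with 6 detected on no Sus array; leaving out 1 array moved the falls to between 0 and 4.

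All 16 immediate early and heat shock genes tested rose in Sus, with a median of 3.27. Such genes respond to handling of tissue as well as to signals in life, and when they were induced was not tested. Fos, another subunit of AP-1, read 13.99, 14.58 and 14.42 in Sus, against 10.83, 11.93 and 10.58 in OMP. The arrays were apart by 3.22 ± 0.39 (adjusted p = 6.07e-07). Egr1, an immediate early zinc finger factor, averaged 14.51 ± 0.13 in Sus and 11.18 ± 0.47 in OMP (difference 3.33 ± 0.36), and Hspa1a, a heat shock protein, averaged 12.80 ± 0.86 in Sus and 8.80 ± 1.89 in OMP (difference 4.01 ± 0.67), with other probes from 1.66 to 3.24. The mean level of the list was 12.21 in Sus, against 9.58 in Sox2GBC, the low-GFP basal cells of the same mouse line, 10.66 in whole mucosa (OM) and 8.93 in OMP. Single Sus arrays ran from 12.04 to 12.39 and single OMP arrays from 8.63 to 9.46.

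The cyclic AMP response element, through which such genes are known to be switched on, has the core TGACG. The 250 bases before each start of RefSeq, build GRCm38.p6, were searched for it on both strands, and 6 of the 13 immediate early genes with an entry held it (46.2%), against 23.1% of all genes higher in Sus, 24.4% of those lower, 28.4% of those not called and 17.8% of all 32851 promoters. The intraflagellar transport and BBSome list held it in 9 of 27 (33.3%). Stretches of 100 bases on the coding strand are shown for the named genes with a match, with the core in capitals.
Fosb, chr7:19310056-19310155, minus strand: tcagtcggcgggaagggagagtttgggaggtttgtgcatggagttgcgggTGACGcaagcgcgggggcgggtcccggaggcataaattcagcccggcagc
Fos, chr12:85473774-85473873, plus strand: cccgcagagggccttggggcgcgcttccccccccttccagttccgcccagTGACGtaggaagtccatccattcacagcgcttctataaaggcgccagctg
Atf3, chr1:191183334-191183433, minus strand: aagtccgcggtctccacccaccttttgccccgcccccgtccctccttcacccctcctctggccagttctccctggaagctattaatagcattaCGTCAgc

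Genes of DNA replication and mitosis were all higher in Sus: 16 of 16 rose, with a median of 2.81. Cdk1, the kinase that drives entry into mitosis, read 7.85, 10.39 and 10.43 in Sus, against 5.73, 5.52 and 5.12 in OMP. Sus arrays lay above OMP arrays, by 4.10 ± 0.49 (adjusted p = 6.49e-07). The SD was 1.48 in Sus and 0.31 in OMP, and the standard error comes from all 7 groups fitted. Without Sus replicate 1 the difference was 4.95. Cdc20, an activator of chromosome separation, read 8.67, 10.79 and 11.22 in Sus, against 6.20, 6.74 and 5.73 in OMP. It differed by 4.0 ± 0.51 (adjusted p = 1.42e-06). The list averaged 9.18 in Sus, 8.01 in Sox2GBC, 8.15 in the Neurog1-GFP precursors of unlesioned mice (Neurog1-Ctrl) and 6.53 in OMP. The 3 Sus arrays differed among themselves, with list means of 7.90, 9.72 and 9.91, and OMP arrays ran from 6.45 to 6.65. Sus replicate 1 was thus the lowest Sus array, within the range of the Sox2GBC arrays and above every OMP array. Leaving out 1 array at a time gave 13 to 16 rises, and 16 without Sus replicate 1.

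Most markers of basal progenitors tested were also higher in Sus than in OMP. Their list as drawn up names the cell division genes Mki67 and Top2a, so it need not be separate from the mitosis genes above. Of 12 globose basal cell and precursor markers 10 rose and 0 fell in Sus, with a list mean of 10.03 in Sus, 9.81 in Sox2GBC and 7.67 in OMP. Over Sus replicates 1, 2 and 3 it was 9.12, 10.44 and 10.53, again lowest in replicate 1. Lgr5, a stem cell receptor, averaged 9.32 ± 0.33 in Sus and 5.34 ± 0.66 in OMP (difference 3.98 ± 0.36), and 5.83 ± 0.39 in Sox2GBC. Ccnd1, a cyclin of the first growth phase, differed by 3.56 ± 0.31. The proneural gene Neurog1 was detected on 0 Sus arrays and 0 OMP arrays. Markers of microvillar and brush cells, rarer cells of the same surface, rose for 10 of 13: Trpm5, a cation channel of brush cells, averaged 8.17 ± 0.16 in Sus and 6.30 ± 0.25 in OMP (difference 1.87 ± 0.30) and Ascl3, a transcription factor of microvillar cells, 9.66 ± 1.14 in Sus and 7.62 ± 0.86 in OMP (difference 2.04 ± 0.56). Horizontal basal cell markers gave 4 rises and 5 falls of 11, and the falls included the keratins Krt5 (5.62 ± 0.34 in Sus and 7.43 ± 0.36 in OMP) and Krt14 (8.69 ± 0.49 in Sus and 10.07 ± 0.19 in OMP). Bowman gland markers gave 4 rises and 3 falls of 12, endothelial markers 0 and 2 of 8, and fibroblast markers 1 and 1 of 8; the falls of fibroblast markers became 0 without OMP replicate 2 and 2 without Sus replicate 1, OMP replicate 1 or OMP replicate 3, and those of Bowman gland markers became 5 without Sus replicate 3 or OMP replicate 3. The part of these cells in the Sus values was not tested.

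**Figure D4:**
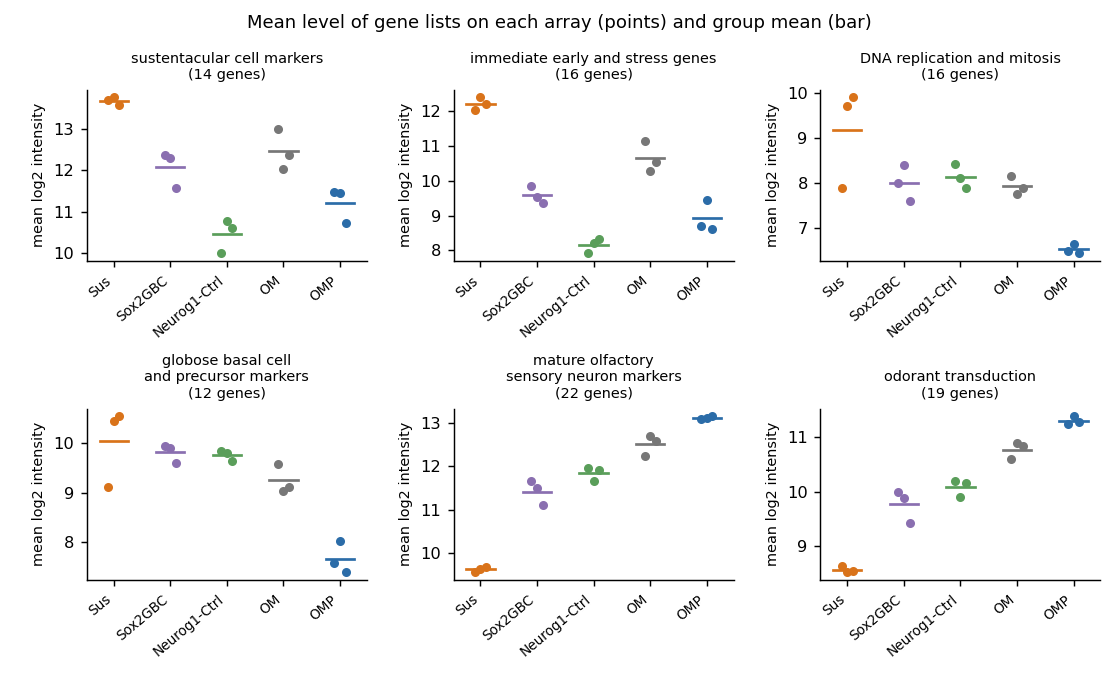
Mean log2 level of 6 gene lists on each array of Sus, Sox2GBC, Neurog1-Ctrl, OM and OMP (points, single arrays; bars, means of 3). Immediate early genes sit highest on all 3 Sus arrays, mitosis genes on Sus replicates 2 and 3 but not 1, and mature neuron markers lowest in Sus.

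Odorant receptors, the largest family of the mouse genome, were the other extreme. Of 1078 odorant receptor genes named on the array 583 were tested, and 544 of these (93.3%) were lower in Sus, 2 were higher and 37 were not called. The median difference was −2.17, with quartiles at −3.05 and −1.50, against −0.02 over all genes. All 3 OMP arrays detected 471 of the 583, all 3 Sus arrays detected 12, and 504 were detected on 0 Sus arrays, so most of these differences are bounded by background in Sus and understate the fall. A receptor had to be detected on at least 3 arrays to be tested, which OMP alone could supply. The filter thus favoured receptors high in OMP, so the 93.3% is in part set by it and does not describe all 1078. Olfr802 and Olfr470 were the exceptions. Olfr802 read 6.87, 7.14 and 6.31 in Sus, against 4.95, 4.79 and 4.57 in OMP. All 3 Sus arrays and 0 OMP arrays detected it, so it was at least 2.29-fold higher in Sus (adjusted p = 9.14e-07). Olfr470 was called (5.12 ± 0.15 in Sus and 4.58 ± 0.05 in OMP) but was detected on 0 arrays of either group, so no fold is given, and its call was lost without Sus replicate 2 (adjusted p = 0.105), OMP replicate 2 (adjusted p = 0.0643) or OMP replicate 3 (adjusted p = 0.0727). Probes within the family can share sequence, so a single receptor is less certain than the family.

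**Figure D5:**
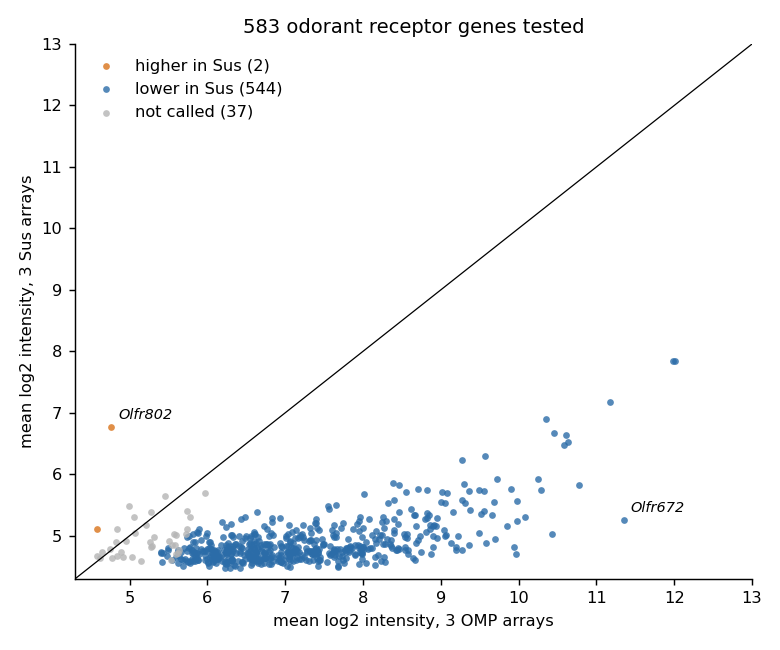
Mean log2 level of each tested odorant receptor gene in Sus (vertical axis) against OMP (horizontal axis), with the line of equality. Nearly all points lie below the line and flat near 5 in Sus, while OMP levels spread upward; Olfr802 lies above it.

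The transduction cascade downstream of the receptors was lower in Sus for 17 of 19 genes and higher for 1, with a median of −2.75. Gnal, the olfactory G protein alpha subunit, read 7.59, 9.17 and 7.90 in Sus, against 13.36, 13.01 and 12.48 in OMP. All Sus arrays were dimmer, by −4.73 ± 0.41 (adjusted p = 8.45e-09). Adcy3, the adenylyl cyclase of olfactory cilia, averaged 8.29 ± 0.22 in Sus and 13.23 ± 0.16 in OMP (difference −4.93 ± 0.27), with −1.60 from its second probe. Cnga2, the main subunit of the cyclic nucleotide-gated channel, read 9.60, 9.88 and 9.64 in Sus, against 13.48, 13.96 and 13.90 in OMP. The groups were apart by −4.07 ± 0.22 (adjusted p = 2.31e-11). Cnga4, a second subunit, differed by −4.71 ± 0.59, and Cngb1, the third, by −4.49 ± 0.22, although its other probe gave 0.30. Ano2, the calcium-activated chloride channel, averaged 9.20 ± 0.06 in Sus and 13.61 ± 0.10 in OMP (difference −4.41 ± 0.20), and Gng13, a G protein gamma subunit, 12.66 ± 0.26 in Sus and 15.37 ± 0.07 in OMP (difference −2.71 ± 0.19). Rgs2, a regulator of G protein signalling, was the exception, at least 1.56-fold higher in Sus (6.22 ± 0.36 in Sus and 4.74 ± 0.15 in OMP), detected on 2 of 3 Sus arrays and 0 OMP arrays; without Sus replicate 1 or 2 it did not pass the detection filter. Slc24a4, the sodium and calcium exchanger that ends the response, was not called (9.27 ± 0.27 in Sus and 9.53 ± 0.40 in OMP, difference −0.26).

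Receptor trafficking genes gave 4 rises and 6 falls of 12. The receptor transporters Rtp1 and Rtp2 were lower in Sus (differences −3.35 and −4.50), and so was Stoml3, a stomatin-like protein of olfactory cilia (−4.67). Reep1, a receptor expression enhancer, averaged 9.18 ± 0.21 in Sus and 12.71 ± 0.42 in OMP (difference −3.53 ± 0.20), whereas its relative Reep6 was higher in Sus by 2.20. Transcription factors of the neuronal lineage were lower in Sus for 13 of 18 and higher for 3. Ebf1, Ebf2 and Ebf3, members of the Olf-1/EBF family first found through olfactory promoters, were lower in Sus (differences −2.12, −2.68 and −2.79). Sus replicate 3 was the brightest Sus array for all of them, with Ebf1 at 9.30 beside 7.75 and 7.89. Lhx2, a homeodomain factor required for receptor expression, differed by −2.26 ± 0.27. Nfib, a nuclear factor I protein, was higher in Sus (12.12 ± 0.12 in Sus and 10.90 ± 0.52 in OMP), with a difference of 1.23 ± 0.25 and other probes from 0.30 to 1.64.

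Olf-1/EBF factors bind palindromes with the core CCCNNGGG. The stricter form CCCNNGGGA was searched on both strands of the same 250 bases, and 3 of 15 transduction genes with an entry held it (20%), against 6.89% of genes lower in Sus, 7.6% of genes higher, 5.67% of those not called and 5.6% of all promoters. The stretches around the match are shown for 2 transduction genes and for Reep1, with the match in capitals.
Cnga2, chrX:71991732-71991831, plus strand: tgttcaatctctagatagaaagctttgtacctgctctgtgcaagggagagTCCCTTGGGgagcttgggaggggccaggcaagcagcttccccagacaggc
Gng13, chr17:25717028-25717127, plus strand: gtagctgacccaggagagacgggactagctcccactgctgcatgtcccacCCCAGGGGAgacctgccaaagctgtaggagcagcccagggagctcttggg
Reep1, chr6:71707565-71707664, plus strand: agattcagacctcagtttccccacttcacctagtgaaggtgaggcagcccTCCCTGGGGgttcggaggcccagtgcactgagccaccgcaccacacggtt

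Genes that build and load cilia were lower in Sus almost throughout. Of 30 intraflagellar transport and BBSome genes 28 fell and 1 rose, with a median of −1.81. Ttc8, a BBSome subunit, read 7.17, 7.51 and 8.04 in Sus, against 10.28, 10.78 and 10.99 in OMP. All Sus arrays were dimmer, by −3.12 ± 0.31 (adjusted p = 5.17e-08). Ift80 and Ift122, intraflagellar transport proteins, were lower (differences −3.01 and −2.67), and so was Bbs7 (−2.77). Kif3a, a subunit of the anterograde motor, averaged 10.19 ± 0.46 in Sus and 12.19 ± 0.45 in OMP (difference −2.0 ± 0.24). Kif17, a motor of ciliary channels, was detected on 0 Sus arrays and was at least 3.84-fold lower in Sus, with −0.77 from its second probe. Ift52 was the single rise (difference 0.56 ± 0.16, adjusted p = 0.596 under scaling by medians), and Ift20 was not called (difference −0.31, other probes from −0.77 to 0.15). Rfx3, a transcription factor of ciliated cells, was lower in Sus (difference −2.34).

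Factors of the RFX family are known to bind X-box sequences built on GTTGCC. That core, searched as before, occurred in 9 of 27 cilia genes with an entry (33.3%), against 11.9% of genes lower in Sus, 8.14% of genes higher, 10.9% of those not called and 10.4% of all promoters. These genes are also counted in the wider classes, so the shares are a description. Stretches with the core in capitals follow for named genes of this list.
Kif17, chr4:138262128-138262227, plus strand: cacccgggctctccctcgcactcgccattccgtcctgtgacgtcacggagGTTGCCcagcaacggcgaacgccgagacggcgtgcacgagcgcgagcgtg
Bbs7, chr3:36613461-36613560, minus strand: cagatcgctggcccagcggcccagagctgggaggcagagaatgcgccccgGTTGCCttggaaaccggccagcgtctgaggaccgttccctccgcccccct
Kif3a, chr11:53567221-53567320, plus strand: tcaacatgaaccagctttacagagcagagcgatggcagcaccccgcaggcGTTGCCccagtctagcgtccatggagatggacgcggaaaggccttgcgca

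The release machinery of the axon terminal was lower in Sus for 17 of 20 genes and higher for 0 (median −2.67). Slc17a6, the vesicular glutamate transporter that makes these neurons glutamatergic, read 10.12, 9.70 and 9.98 in Sus, against 14.33, 14.36 and 14.65 in OMP. Every Sus array was dimmer, by −4.51 ± 0.19 (adjusted p = 1.79e-12). Syp, Sv2a and Syn1, proteins of the vesicle membrane and its surface, were lower (differences −3.78, −4.04 and −3.92). Pclo, an active zone scaffold, was not called (difference 0.32, other probes from −0.67 to 0.51). Among neuronal ion channels 16 of 20 were lower and 1 was higher in Sus (median −2.40). Kcnc4, a fast potassium channel, averaged 11.27 ± 0.38 in Sus and 15.35 ± 0.14 in OMP (difference −4.08 ± 0.20), and Hcn2, a pacemaker channel, 8.82 ± 0.43 in Sus and 12.46 ± 0.26 in OMP (difference −3.65 ± 0.21). Scn3b, a sodium channel beta subunit, was lower in Sus (difference −4.39), with other probes from −3.55 to −2.09. Kcnd2, a transient potassium channel, was the single rise, at least 4.74-fold higher in Sus (7.82 ± 0.49 in Sus and 5.17 ± 0.34 in OMP), as no OMP array detected it.

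Guidance and adhesion genes gave 19 falls and 6 rises of 28 (median −1.74). Sema7a, a membrane-anchored semaphorin, read 7.22, 7.23 and 7.40 in Sus, against 11.84, 12.22 and 12.50 in OMP. It was dimmer on all Sus arrays, by −4.90 ± 0.30 (adjusted p = 9.18e-11). Epha5, an ephrin receptor, was lower (difference −4.05), and so was Kirrel3, an adhesion molecule that sorts olfactory axons (−2.97). The rises included Efnb2, an ephrin ligand detected on 1 OMP array (7.34 ± 0.96 in Sus and 4.84 ± 0.34 in OMP), and the secreted semaphorins Sema3a and Sema3f (2.09 and 1.23). In the neuronal cytoskeleton list 12 of 23 fell and 4 rose, or 2 without Sus replicate 3. Kif1a, the motor of vesicle precursors, was lower in Sus (difference −3.16), whereas the microtubule proteins Mapt and Map2 were higher: Mapt read 12.28, 11.75 and 11.76 in Sus, against 9.0, 8.52 and 8.02 in OMP. Its groups did not overlap, with other probes from 1.04 to 3.27, and Map2 averaged 11.53 ± 0.26 in Sus and 9.12 ± 0.27 in OMP (difference 2.41 ± 0.22). Gap43, a growth cone protein of immature neurons, was not called (9.73 ± 1.01 in Sus and 9.45 ± 0.92 in OMP).

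Genes of energy metabolism included rises and falls. Of 44 respiratory chain subunits 8 rose and 3 fell in Sus, with a median of 0.16, and 33 were not called, a smaller called share than the 59.9% of all genes. The split moved with the scaling, to 16 rises and 0 falls after cyclic loess and 2 rises and 2 falls after scaling by medians, and to 4 rises and 7 falls without OMP replicate 1. Glycolytic genes went both ways, with 9 rises and 4 falls of 25. Aldoc, an aldolase, averaged 12.64 ± 0.24 in Sus and 9.28 ± 0.38 in OMP (difference 3.36 ± 0.31), Ldha, a lactate dehydrogenase subunit, 11.62 ± 0.14 in Sus and 9.04 ± 0.17 in OMP (difference 2.58 ± 0.18) and Slc2a3, a glucose transporter, 12.51 ± 0.16 in Sus and 8.48 ± 0.44 in OMP (difference 4.04 ± 0.45). Eno2, the neuronal enolase, was lower in Sus (7.88 ± 0.36 in Sus and 11.59 ± 0.32 in OMP, difference −3.71 ± 0.20), and so was Pfkp, a phosphofructokinase (difference −2.61 ± 0.46). The test did not call Gapdh or Aldoa (differences −0.43 and −0.43). Among 24 lipid synthesis genes 10 rose and 0 fell, although 4 rose after scaling by medians and 5 without OMP replicate 1, led by Elovl6, a fatty acid elongase, at 3.31 ± 0.28 and Insig1, a sterol sensor, at 3.26 ± 0.41. Secretory pathway genes gave 9 rises and 3 falls of 29, and 14 rises after cyclic loess. Xbp1, a factor of the unfolded protein response, differed by 1.43 ± 0.17.

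Because OMP cells came from another mouse line, the values in Sox2GBC, sorted from the line that gave Sus, are set beside them; both comparisons share the Sus arrays. Against Sox2GBC, Cyp2b10 differed by 3.62, Krt18 by 2.17, Hes1 by 3.67 and Cldn4 by 2.93, where Sus minus OMP gave 4.22, 4.13, 4.46 and 4.08. Fosb differed by 3.98 and Atf3 by 3.92 within that line. For the neuron genes Gnal and Slc17a6 the values were −2.44 and −2.20 against Sox2GBC, beside −4.73 and −4.51 against OMP. Lgr5 differed by 3.49 against Sox2GBC and Cdk1 by 1.86. Other named genes went the opposite way in the 2 comparisons. Nfe2l2 was higher in Sus than in Sox2GBC by 1.53 (adjusted p = 0.0045) and Srxn1 by 1.12 (adjusted p = 0.00411), where Sus minus OMP gave −1.22 and −1.38. Atp1b1 gave 0.46 (adjusted p = 0.0489) beside −1.0 against OMP, and Olfr470 gave −1.91 against Sox2GBC (adjusted p = 4.41e-07). Some large differences from OMP were not called against Sox2GBC: Chil4 differed by 0.98 (adjusted p = 0.512), Map2 by 0.21, Mapt by 0.50, Nqo1 by −0.29, Ascl3 by −0.51 and Slc4a4 by 0.76.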

How the data were processed

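The deposited bead intensity of each probe and its detection p-value came from GenomeStudio, per the submitters' processing notes (version not given in the sources used here), without normalisation as the deposited values show. The authors' processed intensity values served as an alternative. Of 45281 probes 34885 (77%) had 1 gene symbol, 18 several and 10378 none in the platform annotation. 1 OMP column carries the number 4 and was taken as the third OMP array.

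Deposited intensities were background-corrected (normexp, offset 16), quantile-normalised and put on a log2 scale (limma 3.58.1, R 4.3.3). Probes with a detection p-value under 0.01 on at least 3 of 21 arrays were kept, and the brightest probe stood for a gene; another probe is given where it had the opposite sign or a difference less than 0.5 times or over 2 times as large. One linear model was fitted to 21 arrays of 7 groups (14 residual degrees of freedom, 19.01 after moderation). The groups were Sus, OMP, Sox2GBC, Neurog1-Ctrl, OM and, from bulbectomised mice, Neurog1-OBX and OMP-OBX. The p-values were adjusted over all 11870 genes by the Benjamini-Hochberg method at 0.05. The number of arrays limits the precision. A gene undetected on every array of a group has only a bound there: its fold is the brighter group's mean against the higher, per array, of the dim probe and the lowest detected signal.

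The cells compared and the 39 gene lists (863 genes, 796 named on the array, 681 tested) were chosen with earlier results of these data known. Genes named are the markers, the sorting genes, the 15 largest rises and 15 largest falls among called genes with separate groups and a detection p-value under 0.01 on each of the 3 brighter arrays, and from each list up to 8 called and 3 uncalled members. On simulated data with 11870 genes the fit recovered 16%, 58%, 92% and 100% of genes changed by 0.5, 1, 2 and 3 on the log2 scale, with 7 false calls among 140. Only 50 genes were changed at each size, while 59.9% of genes were called in the data, so these shares need not hold for this comparison. Alternatives covered background correction, offset, scaling, the authors' values, the probe filter, the probe rule, arrays fitted, array weights, a replicate block and leaving out each array; a block of 4 classes of arrays by negative control spread was added after seeing the data. Promoter windows came from RefSeq, build GRCm38.p6 (9628 tested genes had one), and the first window per gene was used.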

Additional observations from a re-analysis of the deposited data

How the results depend on the processing

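The number of called genes, 7116, became 7158 without background correction, 7094 after cyclic loess, 6194 after scaling by medians, 7104 with the authors' values, 7313 of 19057 without a probe filter, 6676 with a stricter one, 7103 with the mean of all probes, 5895 with Sus and OMP arrays fitted alone, 6571 with array weights, 7136 with an offset of 50 and 7115 with a block for negative control spread; leaving out 1 array gave 6567 to 6879. None of these moved it by more than 1.5 times. Scaling by medians left 2453 rises and 3741 falls (39.6% rises, beside 48.48%). Genes called at 2-fold ranged from 3428 to 5046 and falling odorant receptors from 439 to 650 over all these settings.

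The correlations of deviations between same-numbered Sus and OMP arrays were 0.23, −0.02 and 0.02. Replicate 1 had the highest share of detected probes in both groups, 42.4% in Sus and 46.0% in OMP. These values cannot settle whether same-numbered arrays were handled together. The replicate block called 7106 genes. Under it Pard6b lost its call (adjusted p = 0.0514, limma) and Gapdh gained one (adjusted p = 0.0364, limma).

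Among the 187 genes named, none that was called under a setting turned its direction there. Pard6b, Olfr470, Ift52, Atp1b1, Hmox1 and Nfe2l2 lost their call under at least 1 setting, and Gapdh, Sec14l3, Cyp2a5, Jag1, Aldoa, Aqp1, Icam1, Esrp1 and H2-Aa gained one. Cyp2a5 differed by 0.90 after cyclic loess and 1.47 with the mean of all probes, and Sec14l3 by 1.33 and 2.22. The causes were not tested. Probes near background in 1 group give bounds, so differences of dim genes, most odorant receptors among them, are understated.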

Other observations

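Some gene families outside the lists were counted after their values were seen, so the counts are descriptions. Of 51 cytosolic ribosomal protein genes, which build the ribosome, 41 were higher and 1 was lower in Sus, with a median difference of 1.08 beside −0.02 over all genes tested. Rps6, a protein of the small subunit, read 12.66, 13.01 and 13.37 in Sus, against 11.25, 11.95 and 11.74 in OMP. All Sus arrays were above all OMP arrays. Rps15a was the one fall (7.66 ± 0.36 in Sus and 9.70 ± 0.15 in OMP). Mitochondrial ribosomal proteins gave 19 rises and 7 falls of 73 (median 0.29), but 4 rises and 7 falls after scaling by medians, a setting that left 33 rises of cytosolic ones. Annexins, calcium-dependent membrane-binding proteins, gave 7 rises and 0 falls of 9. Anxa2 averaged 13.78 ± 0.23 in Sus and 10.92 ± 0.36 in OMP, Anxa3 10.97 ± 0.24 in Sus and 7.89 ± 0.45 in OMP and Anxa6 11.28 ± 0.31 in Sus and 8.14 ± 0.20 in OMP, with differences of 3.14 for Anxa6 and 1.47 for its second probe, while Anxa5 was not called (12.58 ± 0.24 in Sus and 12.84 ± 0.05 in OMP).

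On the neuronal side, 18 of 22 genes named as cilia and flagella associated proteins were lower in Sus and 0 were higher (median −2.18). Cfap69 read 9.77, 9.05 and 8.63 in Sus, against 12.52, 12.59 and 12.33 in OMP. Every Sus array was dimmer, by −3.33 ± 0.27 (adjusted p = 3.46e-09, limma). Trace amine-associated receptors, a second receptor family of olfactory neurons, were lower in Sus for 10 of 11, and 10 were detected on 0 Sus arrays. All 3 OMP arrays detected 10 of them. Testing a gene needed detection on at least 3 arrays, which OMP alone could supply, so the filter favoured members high in OMP. The brightest in OMP, Taar2, averaged 4.91 ± 0.21 in Sus and 7.24 ± 1.13 in OMP and was at least 2.93-fold lower in Sus. Against Sox2GBC, which shares the mouse line of Sus, Rps6 differed by 0.16, Anxa2 by 2.02 and Cfap69 by −0.96.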
